A study of Mus musculus with 12 samples.

Results

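The genes described here encode the subunits of the proteasome, the protease that degrades ubiquitin-tagged proteins, in mouse liver. Members were the genes whose platform symbol is Psma, Psmb, Psmc or Psmd followed by a number with nothing after it, which gave 39 of the 18193 genes named by 1 symbol on the array. Of these, 19 belong to the core particle (Psma and Psmb) and 20 to the regulatory particle (Psmc and Psmd). The 39 genes had 78 probe sets, and for each gene the probe set that was brightest on average across the 12 arrays was followed. After a filter on dim probe sets, which looked at the mean over the 12 arrays and not at the groups, 38 members were tested. The exception was Psmb11, the catalytic subunit of the thymus proteasome, whose mean deposited intensity was 11.8 in control vehicle and 9.34 in null tunicamycin livers. Psma8, a testis form of an alpha subunit, was the dimmest member that passed, at 33.0 in control vehicle and 46.6 in null tunicamycin livers.

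The samples were whole livers of 3-month-old C57Bl/6J mice, in 4 groups of 3 arrays, and the labels call the 3 of a group biological replicates. Control livers are titled Fe+CRE+ and Ire1α null livers Fe-CRE+, so that both genotypes carry the CRE+ label. The labels describe the null as conditional, and they name neither the promoter that drives Cre nor the deleted part of the gene. Mice were injected intraperitoneally with tunicamycin at 2 µg per g of body weight (Fe+CRE+Tm and Fe-CRE+Tm) or with a 150 µM dextrose vehicle, and the liver was taken at 8 hours. Tunicamycin blocks N-linked glycosylation, so that unfolded glycoprotein collects in the endoplasmic reticulum (ER). Ire1α, the product of Ern1, is an ER membrane kinase and RNase that senses such protein. The brightest Ern1 probe set differed between null and control by -0.13 with vehicle and 0.10 with tunicamycin (log2), neither called, and since the deleted part is not given this checks nothing about the labels.

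The proteasome is built from a barrel and its caps. The barrel, or core particle, has outer rings of alpha subunits, which gate the channel, and inner rings of beta subunits, of which Psmb5, Psmb6 and Psmb7 carry the chymotrypsin-like, caspase-like and trypsin-like active sites. Interferon and inflammation replace these with the inducible subunits Psmb8, Psmb9 and Psmb10, which form the immunoproteasome. The regulatory particle holds a ring of ATPases (Psmc), which unfold the substrate and thread it into the barrel, and non-ATPase subunits (Psmd), which bind and remove ubiquitin. Misfolded ER proteins are pulled into the cytosol by the ATPase Vcp and degraded by the proteasome, a route called ER-associated degradation.

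Values below are quantile-normalized log2(intensity + 16), and a level is compared between arrays for 1 probe set and never between genes. A change is a log2 difference ± its standard error (SE) in the limma fit, with n = 3 arrays in each group. A gene was called, and is said to have risen or fallen, at a Benjamini-Hochberg adjusted p under 0.05 over the 14568 genes tested. The mean deposited intensity per array, without its extremes, was 247 ± 13.4 (SD, n = 3) in control vehicle and 285 ± 10.3 in control tunicamycin livers, and 238 ± 14.7 and 279 ± 34.3 in null livers, so the tunicamycin arrays were brighter on average. The number of arrays limits the precision: the median SE of a change over the members was 0.17. Null tunicamycin replicate 2 carried kidney transcripts, with 12 of 19 kidney markers more than 1 (log2) above every other array and Umod at 13.1 against at most 6.55. Hepatocyte markers passed the filter for all 8 genes present, and none was called with tunicamycin in either genotype.

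No proteasome subunit rose with tunicamycin in either genotype, and the largest falls in control livers were those of the inducible catalytic subunits. In control livers 7 of 38 members fell and 0 rose by the limma fit, beside 13.3% of all genes that fell and 11.6% that rose. In null livers 5 members fell and 0 rose, beside 9.23% and 7.59% of all genes. At an unadjusted p under 0.05 the limma fit gave 10 members lower and 0 higher in control, beside 20.9% and 15.8% of all genes, and 14 lower and 0 higher in null livers, beside 17.3% and 12.6%. Changes were small: 0 members moved 2-fold or more in either genotype, which 10.2% of all genes did in control and 7.27% in null livers. The members that fell in both genotypes were Psma7, Psmb3, Psmb10 and Psmd12, while Psma2, Psmb8 and Psmb9 were called in control alone and Psmd14 in null alone, and no test of the difference between genotypes passed for any of them. The share of members called lower, 18.4% in control and 13.2% in null livers, was not far above that of all genes.

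**Figure D1:**
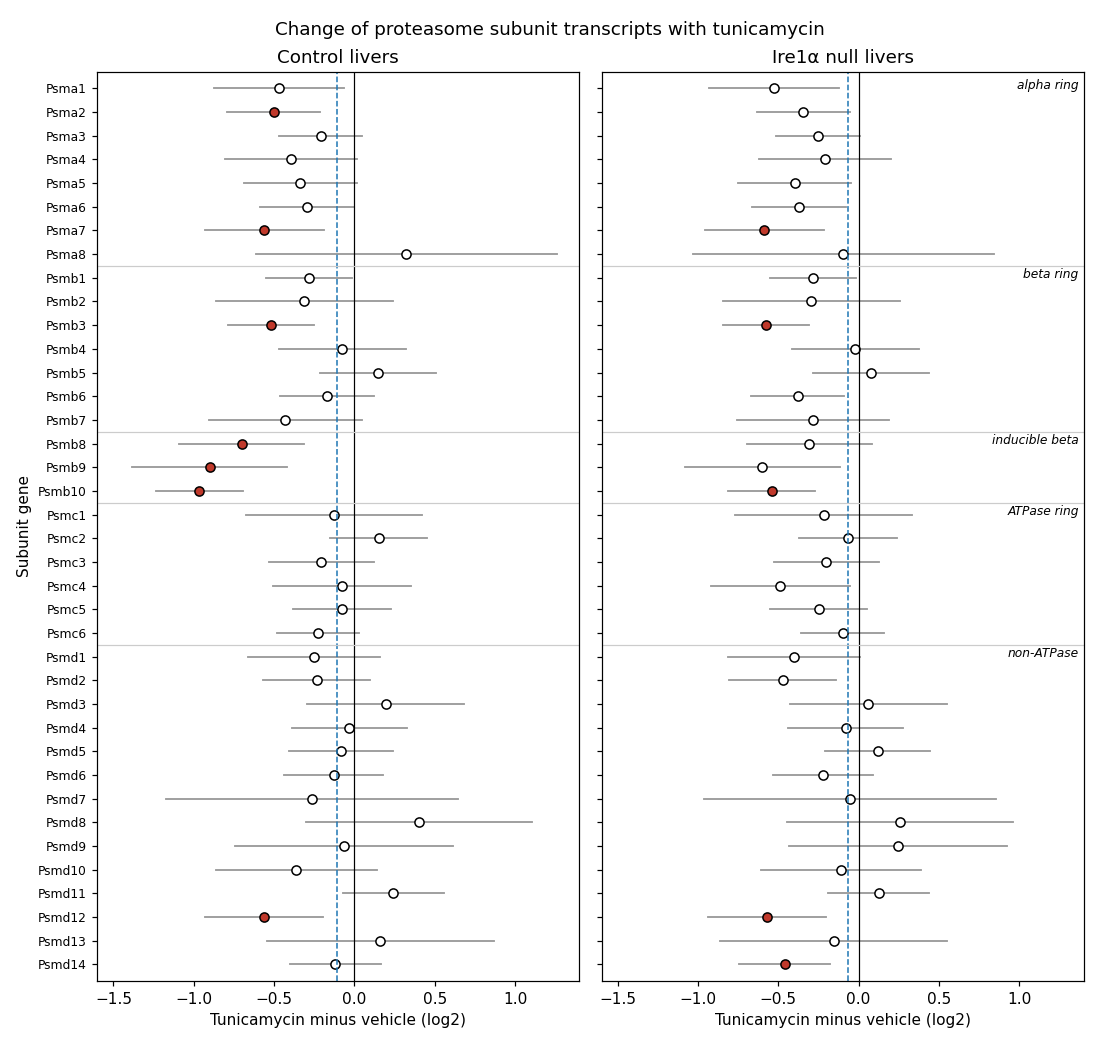
Change of each of the 38 tested proteasome subunits with tunicamycin in control (left) and Ire1α null (right) livers, as log2 differences with 95% confidence intervals of the limma fit; filled points passed the adjusted p under 0.05 and the dashed line is the median of all genes tested (-0.11 and -0.07). The 3 inducible beta subunits lie farthest to the left in control livers, between -0.97 and -0.70.

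The inducible subunits fell together in control livers. Psmb10, which replaces the trypsin-like subunit, read 10.31, 10.15 and 10.23 in the control vehicle arrays and 9.19, 9.39 and 9.21 in the control tunicamycin arrays. In null livers Psmb10 read 10.14, 10.14 and 9.97 with vehicle and 9.63, 9.54 and 9.45 with tunicamycin. The vehicle and tunicamycin arrays were apart in both genotypes, and the 3 null tunicamycin arrays lay above the 3 control tunicamycin arrays. It came to -0.97 ± 0.12 in control (adjusted p = 0.00015), that is 0.512 of the vehicle level, and to -0.54 ± 0.12 in null livers (adjusted p = 0.0113). The null call was lost without null tunicamycin replicate 3 (-0.50, adjusted p = 0.0501).

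Psmb9, which replaces the caspase-like subunit, read 8.94, 8.78 and 8.88 in control vehicle and 7.90, 8.18 and 7.81 in control tunicamycin livers. In null livers the vehicle arrays spread widely, at 9.08, 8.26 and 8.35, and the tunicamycin arrays read 7.86, 8.30 and 7.73. The groups were therefore apart in control livers and overlapped in null livers. The change was -0.90 ± 0.22 in control (adjusted p = 0.0104) and -0.60 ± 0.22 in null livers (adjusted p = 0.0867). Without null tunicamycin replicate 2, the array with kidney transcripts, the null change was -0.77 and passed (adjusted p = 0.0417).

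Psmb8, which replaces the chymotrypsin-like subunit, read 9.31, 8.63 and 8.73 in control vehicle and 8.18, 8.38 and 8.01 in control tunicamycin livers. Null vehicle livers read 8.46, 8.38 and 8.52, below every control vehicle array, and null tunicamycin livers 8.06, 8.16 and 8.21. Psmb8 fell by 0.70 in control livers (SE 0.18, adjusted p = 0.0128), and the change in null livers was -0.31 ± 0.18 (adjusted p = 0.279). Without control tunicamycin replicate 3 the control change was -0.61 and no longer passed (adjusted p = 0.0532).

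**Figure D2:**
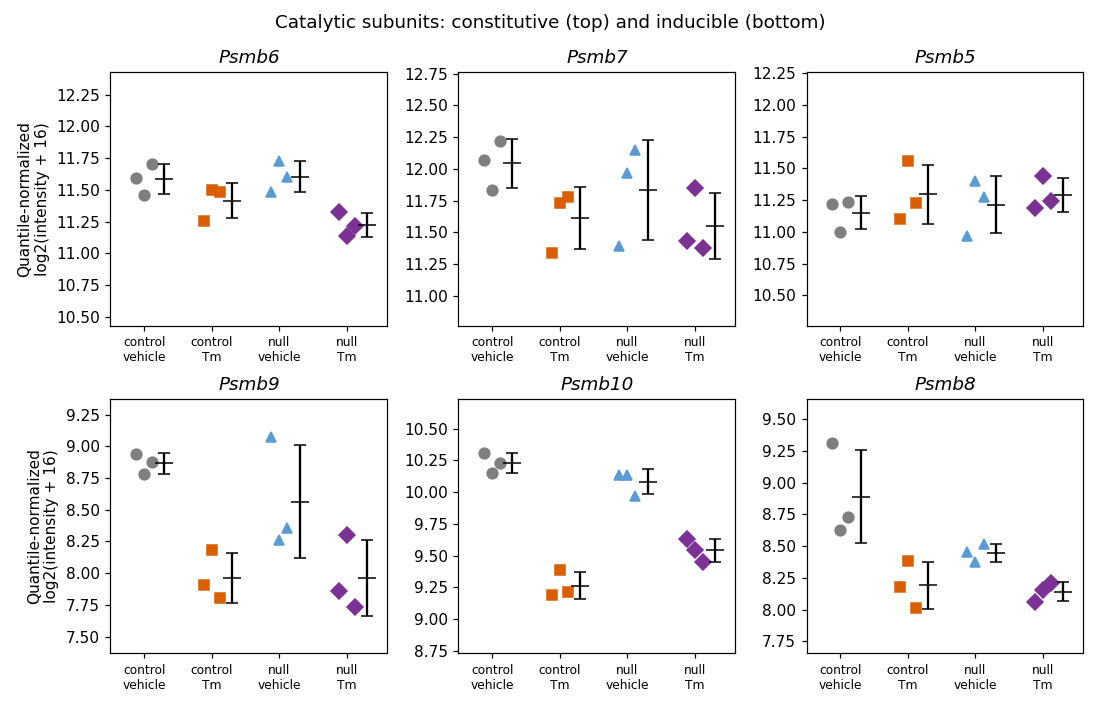
Level of the 3 constitutive catalytic subunits (top) and of the inducible subunits that replace them (bottom) on each of the 12 arrays, as quantile-normalized log2(intensity + 16), with the mean and SD of each group of 3 as a bar beside the points; every panel spans the same log2 range. Control vehicle and control tunicamycin arrays do not overlap for Psmb8, Psmb9 and Psmb10, and do overlap for Psmb5 and Psmb6.

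The stretch of genome before each inducible gene is given to set the sequences beside these falls. The lines below hold the 250 bases before the annotated start in RefSeq (build GRCm38.p6), 5′ to 3′ on the gene's strand, and the last base lies next to the start. Capitals mark a match to any of the 7 motifs searched on both strands: TGACNNNGC (antioxidant response element core), TGACGTG (XBP1 and ATF6 type), CCAAT and CCACG with 9 bases between them (ER stress response element), TGATGNAA (ATF4 and CEBP type), CCAAT, GAAA repeated after 2 bases (interferon response element) and TTCNNNGAA (STAT type). The letters CCAAT also make up the start of the ER stress response element, and a match is a string of letters, not a shown binding site.
Psmb8, chr17:34197945-34198194, plus strand: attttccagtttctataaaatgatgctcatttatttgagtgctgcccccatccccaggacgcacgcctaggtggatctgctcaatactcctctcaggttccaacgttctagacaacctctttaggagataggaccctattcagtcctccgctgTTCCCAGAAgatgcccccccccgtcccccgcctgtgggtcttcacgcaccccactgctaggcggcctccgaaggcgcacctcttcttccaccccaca
Psmb9, chr17:34187331-34187580, minus strand: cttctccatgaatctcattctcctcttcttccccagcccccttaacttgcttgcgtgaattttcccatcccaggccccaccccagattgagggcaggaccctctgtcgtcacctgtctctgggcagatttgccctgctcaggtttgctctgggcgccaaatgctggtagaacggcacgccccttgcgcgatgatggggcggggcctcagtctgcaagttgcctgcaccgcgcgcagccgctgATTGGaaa
Psmb10, chr8:105938393-105938642, minus strand: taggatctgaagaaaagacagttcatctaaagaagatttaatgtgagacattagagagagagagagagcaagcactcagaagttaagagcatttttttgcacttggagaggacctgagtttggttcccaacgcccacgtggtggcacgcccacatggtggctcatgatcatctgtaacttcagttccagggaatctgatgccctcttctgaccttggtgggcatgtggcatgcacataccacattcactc
Psmb8 held 1 STAT type match, 97 to 89 bases before the start, Psmb9 held CCAAT on the reverse strand 8 to 4 bases before it, and Psmb10 held no match to the 7 motifs. The interferon motif was found in 0 of these 3 windows. The Psmb10 window was the only one given for the gene and may belong to an upstream annotated start. Its lack of matches therefore need not hold for other starts of Psmb10.

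Over the members, 32 of 39 had a RefSeq window, with 34 windows in all, and Psma8, Psmb1, Psmb2, Psmb7, Psmc3, Psmd3 and Psmd7 had none. The interferon motif lay in 8.82% of member windows (Psmb3, Psmd4 and Psmd9) and in 2.98% of all 32851 windows of the same length. The STAT type motif lay in 2.94% of member windows and 7.02% of all windows. Both motifs were chosen with the falls of the inducible subunits already known.

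Genes that interferon induces, among them partners of the immunoproteasome in antigen processing, were followed from a list of 21, of which 20 were measured. In control livers 11 fell and 1 rose, beside 13.3% and 11.6% of all genes. In null livers 10 fell and 2 rose, beside 9.23% and 7.59%. The median change was -0.81 in control and -0.62 in null livers, against -0.11 and -0.07 for all genes. The interferon-induced GTPase genes Igtp and Iigp1 had the largest falls in control livers, at -2.66 and -2.35, and both also fell in null livers, at -1.83 and -1.63. The GTPase genes Gbp2 and Gbp3 were not called in either genotype. Irf1, a transcription factor that drives the inducible subunits, read 10.20, 9.51 and 9.49 with vehicle and 8.51, 8.28 and 7.97 with tunicamycin in control livers, where it fell by 1.48 (SE 0.21, adjusted p = 0.000282). Irf1 fell by 0.74 in null livers (SE 0.21, adjusted p = 0.0307), a call lost in 7 of 28 alternatives. Nlrc5, the transactivator of class I antigen presentation genes, fell by 1.35 in control and, with a change of -1.49, in null livers, the control call being lost when the 5′ to 3′ actin ratio, a measure of RNA quality, was a covariate (-1.01, adjusted p = 0.154). The peptide transporter gene Tap1 went the other way, with 0.37 in control and 0.40 in null livers, calls lost under 13 and 15 of 28 alternatives. Tap2 was the other gene that rose in null livers, at 0.52 to 1.11 over the alternatives, 15 of which lost the call. Psme1, which encodes a subunit of the interferon-induced activator that caps the core particle, also fell in control livers.

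Cells of the immune system also express the inducible subunits, and in whole liver fewer cells of a type and less RNA per cell cannot be told apart. Of 12 Kupffer cell and macrophage markers 1 fell in control livers (Adgre1) and 2 fell in null livers (Adgre1 and Timd4), and 0 rose. The median change over the 12 was -0.50 in control and -0.52 in null livers, against -0.11 and -0.07 for all genes, of which 13.3% and 9.23% fell. Their summed deposited intensity lay between 9532 and 15892 in control vehicle (median 10759) and between 9296 and 12456 in control tunicamycin livers (median 11089). In null livers it lay between 6812 and 11386 with vehicle (median 9074) and between 5566 and 11629 with tunicamycin (median 5869). The null tunicamycin median was thus below every null vehicle array. Of 9 lymphocyte markers tested 1, the B cell gene Cd79b, fell in both genotypes, and Cd3e and Cd4 were too dim to test. The median change over the 9 was -0.28 in control and -0.06 in null livers. The summed lymphocyte intensity was 939 to 1214 in control vehicle, 738 to 923 in control tunicamycin, 796 to 970 in null vehicle and 727 to 894 in null tunicamycin livers. The part of these cells in the falls of Psmb8, Psmb9 and Psmb10 was not tested.

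The constitutive catalytic subunits, which the inducible ones replace, did not pass in either genotype in the main fit. Psmb5 (chymotrypsin-like) read 11.22, 11.00 and 11.23 in control vehicle and 11.10, 11.56 and 11.23 in control tunicamycin livers, and 10.96, 11.40 and 11.27 in null vehicle and 11.19, 11.44 and 11.24 in null tunicamycin livers. The groups overlapped in both genotypes. Its change was 0.15 ± 0.17 in control (95% interval -0.22 to 0.51) and 0.08 ± 0.17 in null livers (-0.28 to 0.44).

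Psmb6 (caspase-like) read 11.59, 11.46 and 11.70 in control vehicle and 11.26, 11.50 and 11.49 in control tunicamycin livers, and 11.48, 11.73 and 11.60 in null vehicle and 11.32, 11.14 and 11.21 in null tunicamycin livers. Its 3 null tunicamycin arrays lay below the 3 null vehicle arrays, and in control livers the groups overlapped. The change was -0.17 ± 0.13 in control (adjusted p = 0.393) and -0.38 ± 0.13 in null livers (adjusted p = 0.0741). In null livers Psmb6 was called lower in 2 of 28 alternatives, with changes of -0.44 to -0.16 over all of them and a smallest adjusted p of 0.0325.

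Psmb7 (trypsin-like) read 12.07, 11.84 and 12.22 in control vehicle and 11.34, 11.73 and 11.78 in control tunicamycin livers, and 11.39, 11.97 and 12.15 in null vehicle and 11.43, 11.85 and 11.38 in null tunicamycin livers. Null vehicle replicate 1 lay well below the other null vehicle arrays, so that the null groups overlapped, while the control groups were apart. The change was -0.43 ± 0.22 in control (adjusted p = 0.176) and -0.28 ± 0.22 in null livers (adjusted p = 0.418). The intervals, -0.90 to 0.04 in control and -0.76 to 0.19 in null livers, leave room for a fall of the size seen for Psmb8.

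Shown next are the windows before Psmb5 and Psmb6, the constitutive counterparts that had a window, and that of the regulatory subunit Psmd12. Each holds the antioxidant response element core, through which the transcription factor Nfe2l1 raises proteasome genes when proteasome activity is short. Psmc6 and Psmd9 hold it too and are not printed. Capitals again mark matches to any of the 7 motifs.
Psmb5, chr14:54617996-54618245, minus strand: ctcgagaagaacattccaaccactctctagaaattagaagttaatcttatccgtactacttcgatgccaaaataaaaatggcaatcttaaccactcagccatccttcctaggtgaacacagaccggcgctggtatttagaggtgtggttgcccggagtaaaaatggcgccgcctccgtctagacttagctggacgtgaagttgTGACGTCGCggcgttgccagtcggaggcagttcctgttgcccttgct
Psmb6, chr11:70525107-70525356, plus strand: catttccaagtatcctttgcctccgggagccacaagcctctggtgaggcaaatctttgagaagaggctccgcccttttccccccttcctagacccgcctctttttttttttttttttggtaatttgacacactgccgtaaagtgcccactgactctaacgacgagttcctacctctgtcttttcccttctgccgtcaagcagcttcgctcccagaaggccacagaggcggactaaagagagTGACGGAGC
Psmd12, chr11:107479278-107479527, plus strand: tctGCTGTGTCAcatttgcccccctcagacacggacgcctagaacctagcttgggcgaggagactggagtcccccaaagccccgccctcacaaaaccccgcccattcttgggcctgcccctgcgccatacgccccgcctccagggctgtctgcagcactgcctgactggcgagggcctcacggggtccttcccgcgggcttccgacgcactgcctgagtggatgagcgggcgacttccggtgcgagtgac
The match lay 47 to 39 bases before the start in Psmb5, 9 to 1 bases in Psmb6 and, on the reverse strand, 247 to 239 bases in Psmd12. It was present in 14.7% of member windows (Psmb5, Psmb6, Psmc6, Psmd9 and Psmd12) and in 10.2% of all windows. The XBP1 and ATF6 type motif lay in 2.94% of member windows (Psma1) and 1.65% of all windows, the ATF4 and CEBP type in 2.94% (Psmd13) and 3.45%, the full ER stress response element in 0 member windows and 0.113% of all, and CCAAT in 38.2% and 33.8%. Of the 5 genes with the antioxidant core, Psmd12 fell in both genotypes and the other 4 were not called in either.

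Among the other beta subunits, which close the inner rings, Psmb3 fell most steadily. It read 11.11, 11.32 and 11.14 in control vehicle and 10.62, 10.78 and 10.62 in control tunicamycin livers. In null livers it read 11.51, 11.41 and 11.41 with vehicle and 10.91, 10.77 and 10.91 with tunicamycin. The groups were apart in both genotypes, with changes of -0.52 (SE 0.12, adjusted p = 0.00835) in control and -0.58 (SE 0.12, adjusted p = 0.00765) in null livers. Of Psmb1, Psmb2 and Psmb4 none was called: Psmb1 changed by -0.28 in both genotypes, Psmb2 by -0.31 and -0.29, and Psmb4 by -0.07 and -0.02. The median over the 7 constitutive beta subunits was -0.28 in both genotypes.

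The alpha subunits, which form the outer rings, had a median change of -0.37 in control and -0.36 in null livers over 8 genes. Psma7 read 10.73, 10.30 and 10.69 in control vehicle and 9.87, 10.08 and 10.07 in control tunicamycin livers, then 10.13, 10.70 and 10.32 in null vehicle and 9.78, 9.86 and 9.74 in null tunicamycin livers. No tunicamycin array reached a vehicle array of its genotype, and Psma7 fell by 0.56 in control (SE 0.17, adjusted p = 0.0303) and by 0.59 in null livers (SE 0.17, adjusted p = 0.0349). Psma2 read 11.53, 11.29 and 11.29 in control vehicle and 10.95, 10.90 and 10.74 in control tunicamycin livers, then 11.04, 11.18 and 11.08 in null vehicle and 10.89, 10.76 and 10.62 in null tunicamycin livers. Its groups were also apart in both genotypes, and the fall was 0.50 in control (SE 0.13, adjusted p = 0.0155) while the null change was -0.34 ± 0.13 (adjusted p = 0.103). The control call of Psma2 was lost without control tunicamycin replicate 3 (-0.44, adjusted p = 0.0611) and without control vehicle replicate 1 (-0.43, adjusted p = 0.055). Psma7 lost its control call without any 1 of 5 of the 6 control arrays, with changes of -0.60 to -0.49, and its null call without any 1 of 5 of the 6 null arrays, with changes of -0.62 to -0.43.

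Psma1, Psma3, Psma4, Psma5 and Psma6 did not pass in either genotype and lay between -0.47 and -0.21 in control and between -0.53 and -0.21 in null livers. Psma8, near the dim end, gave 0.32 ± 0.43 and -0.09 ± 0.43. Other probe sets of 3 alpha genes differed from the chosen one when all 34945 probe sets were tested. A dimmer probe set of Psma3 rose by 0.86 in control livers (adjusted p = 0.0256), where the chosen one gave -0.21. A dimmer probe set of Psma6 fell by 0.86 in null livers (adjusted p = 0.014) and the chosen one gave -0.37, and for Psma1 the values were -0.90 (adjusted p = 0.0406) and -0.53. Over all 78 member probe sets 7 were called lower and 1 higher in control livers, beside 7.03% and 7.67% of all probe sets, and 4 lower and 0 higher in null livers, beside 4.39% and 4.23%.

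In the regulatory particle 1 of 20 genes fell in control livers (5%) and 2 in null livers (10%), beside 13.3% and 9.23% of all genes. None of the 6 ATPase genes of the particle was called in either genotype. Psmc1 gave -0.13 in control and -0.22 in null livers, Psmc3 -0.21 and -0.20, and Psmc5 -0.08 and -0.25. The changes of the ring ran from -0.23 for Psmc6 to 0.15 for Psmc2 in control and from -0.49 for Psmc4 to -0.06 for Psmc2 in null livers. The largest of these, Psmc4 in null livers, read 10.91, 10.53 and 10.80 with vehicle and 10.50, 9.85 and 10.44 with tunicamycin, so that the groups were apart, and had an adjusted p of 0.119.

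Of the 14 non-ATPase genes 1 fell in control and 2 fell in null livers, beside 13.3% and 9.23% of all genes. Psmd12, a scaffold subunit of the lid, read 11.16, 11.13 and 10.94 in control vehicle and 10.70, 10.56 and 10.28 in control tunicamycin livers, then 10.85, 10.96 and 11.28 in null vehicle and 10.44, 10.68 and 10.26 in null tunicamycin livers. The groups were apart in both genotypes, and it fell by 0.57 in each (SE 0.17, adjusted p = 0.0284 in control and 0.038 in null livers). The control call was lost without any 1 of 4 control arrays, the smallest change being -0.45 without control tunicamycin replicate 3, and the null call without any 1 of 4 null or 2 control arrays, at -0.60 to -0.45.

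Psmd14, the lid subunit that cleaves ubiquitin chains from the substrate, read 10.80, 10.80 and 10.89 in control vehicle and 10.65, 10.84 and 10.64 in control tunicamycin livers. In null livers it read 10.68, 10.73 and 10.90 with vehicle and 10.19, 10.46 and 10.28 with tunicamycin. The null groups were apart and the control groups overlapped. Psmd14 fell by 0.46 in null livers (SE 0.13, adjusted p = 0.0316), against -0.12 ± 0.13 in control livers (adjusted p = 0.558), and the difference between the responses was -0.34 ± 0.18 (adjusted p = 0.714). The null call was lost without null tunicamycin replicate 1 or 3 or null vehicle replicate 2 or 3, at -0.48 to -0.39.

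The other 12 non-ATPase genes ranged from -0.36 for Psmd10 to 0.40 for Psmd8 in control livers and from -0.47 for Psmd2 to 0.26 for Psmd8 in null livers. Psmd2, a base subunit that receives ubiquitin shuttles, came near the threshold in null livers at -0.47 ± 0.15 (adjusted p = 0.0539). The scaffold subunit Psmd1 gave -0.25 and -0.40, and the ubiquitin receptor Psmd4 -0.03 and -0.08. The lid subunits Psmd3, Psmd6, Psmd7 and Psmd13 lay between -0.26 and 0.20 in control and between -0.22 and 0.06 in null livers. Psmd5, Psmd9 and Psmd10 carry the family name but act as chaperones that assemble the base, and gave -0.08, -0.07 and -0.36 in control and 0.12, 0.25 and -0.11 in null livers. Psmd8, a lid subunit, had the largest positive change, with 11.15, 10.26 and 10.71 in control vehicle and 11.07, 11.24 and 11.01 in control tunicamycin livers. The groups overlapped through control vehicle replicate 1, and the change of 0.40 ± 0.32 was not called (adjusted p = 0.406). Psmd11, another lid subunit, was the 1 member whose groups were apart with tunicamycin higher in control livers, beside 18% of all genes, at 0.24 ± 0.14 (adjusted p = 0.255). In null livers there was 0, beside 13.6%.

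Taken over kinds of subunit, the control arrays with tunicamycin lay below those with vehicle by 0.90 (median change) for the inducible subunits and by 0.37 for the alpha subunits, and the regulatory particle gave -0.10, near the median of all genes. In null livers the same medians were -0.54, -0.36 and -0.13. In control livers 31 of 38 members had a change below 0, beside 59.4% of all genes, and in null livers 32, beside 56.8%. These counts were 20 and 25 with array medians centred and 19 and 20 with deposited values. The groups were apart with tunicamycin lower for 14 members in control and 16 in null livers, beside 24.5% and 19.4% of all genes. Members deviated from their group means together to some extent: the median Pearson correlation of 703 pairs of members over the 12 arrays was 0.22, and 0.01 over pairs of all genes. Members share the 12 labelled samples and are not replicates of a condition. Why members deviate together was not tested. Control vehicle replicate 1 was the highest of the 12 arrays for 13 members, and null vehicle replicate 1 was the lowest for 9 and the highest for 6.

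**Figure D3:**
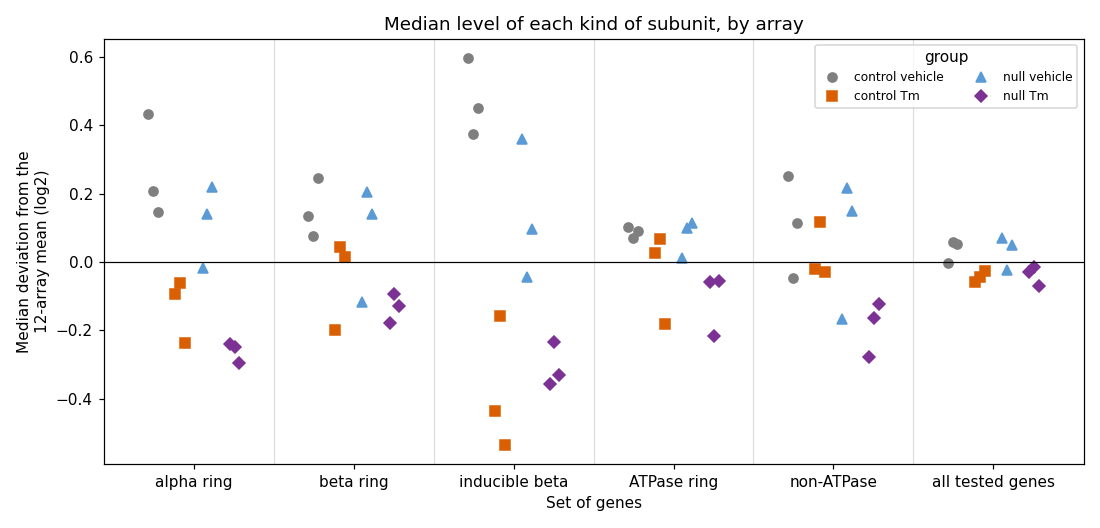
Median over the genes of each kind of subunit of the deviation from the 12-array mean (log2), 1 point per array, marked by group, with all tested genes at the right. For the inducible subunits the 3 control vehicle arrays lie at 0.37 to 0.60 and the 3 control tunicamycin arrays at -0.53 to -0.16.

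How far the constitutive subunits fell depended on how the arrays were scaled to each other. With array medians centred, or with the deposited intensities as they are, 2 members fell in control livers (Psmb9 and Psmb10) and 0 in null livers. Of all genes 8.11% and 7.33% fell in control livers under these 2 scalings, and 4.83% and 3.51% in null livers. With cyclic loess normalization, chosen after seeing the data, the counts were 6 and 2, beside 11.8% and 7.61% of all genes. The median change of the regulatory particle turned from -0.10 to 0.10 with centred medians and 0.13 with deposited values in control livers, and from -0.13 to 0.01 and 0.09 in null livers. The alpha median shrank to -0.15 and -0.13 in control and -0.21 and -0.14 in null livers, and the beta median to -0.10 and -0.08 in control and -0.14 and -0.07 in null livers. That of the inducible subunits stayed below 0, at -0.74 and -0.72 in control and -0.37 and -0.30 in null livers. Psmb10 in control livers was called in 28 of 28 alternatives, with changes between -1.03 and -0.75. Centring also changed the split over all genes, from 11.6% higher and 13.3% lower to 14.4% and 8.11% in control livers. The ratio of 5′ to 3′ actin control probe sets, which falls as RNA is degraded, was 0.757 ± 0.323 (SD, n = 3) in control vehicle and 0.328 ± 0.0533 in control tunicamycin livers (exact permutation test, two-sided, p = 0.1, the smallest that 3 against 3 arrays can give). With it as a covariate 3 members fell in control livers (Psma2, Psmb8 and Psmb10), beside 5.87% of all genes, and Psmb9 changed by -0.66 and was not called (adjusted p = 0.174). The same ratio for Gapdh did not fall with the actin ratio. It was 0.528 ± 0.22 (SD, n = 3) in control vehicle and 0.556 ± 0.0289 in control tunicamycin livers (exact permutation test, two-sided, p = 0.9). The part of RNA quality in the falls of the members was not tested.

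**Figure D4:**
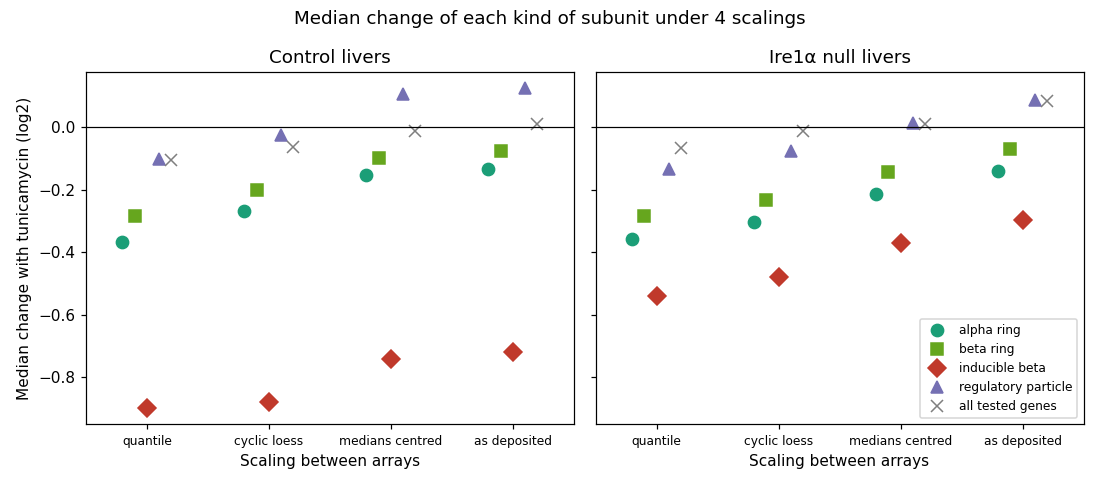
Median change with tunicamycin (log2) of each kind of subunit and of all tested genes in control (left) and null (right) livers, under 4 ways to scale the arrays. The inducible subunits lie lowest under each scaling, and the regulatory particle lies at -0.10 in control livers with quantile normalization and at 0.13 with the deposited values.

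Without stress no subunit passed between the genotypes. By the limma fit 0 of 38 members and 0 of 14568 genes were called between null and control livers, and at an unadjusted p under 0.05 there were 2 members and 597 genes (4.1%). These 2 were Psmb8, at -0.44 ± 0.18 with groups apart, and Psmd10, at -0.52 ± 0.23 with groups that overlapped, both with an adjusted p of 0.988. Psmb3 came next, at 0.25 ± 0.12 and with every null array above every control array. A dimmer probe set of Psmb3 went the other way, at -0.18 ± 0.22 when all probe sets were tested.

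With tunicamycin, 0 members differed between null and control livers, beside 3.99% of all genes called, and 2 members passed an unadjusted p under 0.05, beside 15.6% of all genes. These were Psmd14, at -0.40 ± 0.13 (adjusted p = 0.136), and Psmb10, at 0.28 ± 0.12 (adjusted p = 0.307). The arrays of the groups were apart for both, Psmd14 lower and Psmb10 higher in null livers. Psmd8 came next by p, at -0.57 ± 0.32 with groups apart. For Psmb5 the difference was at -0.36 to 0.36 (95% interval), which does not show that the genotypes are alike.

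The test of whether the response to tunicamycin differed between genotypes called 0 members and 0.837% of all genes. At an unadjusted p under 0.05 it gave 1 member, Psmb10, and 8.26% of all genes. The fall of Psmb10 was smaller by 0.43 ± 0.18 in null livers (adjusted p = 0.504, and between 0.299 and 0.737 over the alternatives). For Psmb8 and Psmb9 the difference was 0.39 ± 0.25 (adjusted p = 0.786) and 0.30 ± 0.31 (adjusted p = 0.91). The change was closer to 0 in null livers for all 3 inducible subunits, and none passed the test of the difference.

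Partners of the proteasome were called in both directions. Lists of these genes were counted in the same fit, and the members named were those called. Each count with tunicamycin, here and for the lists that follow, stands beside the same shares of all genes. In control livers 13.3% of all genes fell and 11.6% rose, and in null livers 9.23% fell and 7.59% rose. Lists this short cannot be told from those shares by 1 or 2 calls. Of 4 measured activator and inhibitor genes, 2 rose and 1 fell in control livers and 0 were called in null livers. Psme1 read 11.12, 11.07 and 11.04 in control vehicle and 10.20, 10.34 and 10.48 in control tunicamycin livers, and fell by 0.74 (SE 0.12, adjusted p = 0.000737). In null livers it read 10.87, 10.90 and 10.83, then 10.56, 10.56 and 10.50, a change of -0.32 ± 0.12 (adjusted p = 0.0835). The nuclear activator gene Psme3 rose by 0.51 (SE 0.14, adjusted p = 0.0229) and the inhibitor gene Psmf1 by 0.67 (SE 0.17, adjusted p = 0.0135) in control livers, and the Psmf1 change was 0.07 and not called without probe sets marked as cross-hybridising. Leaving out 1 array ended the Psme3 call for 4 control arrays, at 0.43 to 0.51, and the Psmf1 call for control tunicamycin replicate 1 (0.60) and control vehicle replicate 3 (0.59). Adjusted for the actin ratio, Psme1 was still called (-0.74, adjusted p = 0.0138), and Psme3 (0.61, adjusted p = 0.069) and Psmf1 (0.54, adjusted p = 0.167) were not.

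Assembly chaperones, which pair the alpha subunits and mature the beta ring, split in direction. Of 5 measured, 2 rose and 1 fell in control livers, and 1 rose and 1 fell in null livers. Psmg2 read 8.98, 8.60 and 8.55 in control vehicle and 9.75, 9.74 and 9.46 in control tunicamycin livers, and rose by 0.95 (SE 0.18, adjusted p = 0.00268) there and by 0.93 (SE 0.18, adjusted p = 0.00515) in null livers. Psmg3 rose by 0.86 in control livers (adjusted p = 0.0167), and this was not called without control tunicamycin replicate 2 (0.83) or control vehicle replicate 2 (0.71). Adjusted for the actin ratio, neither rise was called in control livers, at 0.55 for Psmg2 (adjusted p = 0.0866) and 0.41 for Psmg3 (adjusted p = 0.344), while Psmg2 in null livers was, at 0.68 (adjusted p = 0.0201). When the probe sets of a gene were averaged, Psmg2 gave 0.47 in control livers (adjusted p = 0.0475) and Psmg3 gave 0.58 (adjusted p = 0.0784). Pomp, the maturation factor of the core particle, read 11.30, 11.63 and 11.42 in null vehicle and 10.48, 9.96 and 10.64 in null tunicamycin livers, a fall of 1.09 (SE 0.23, adjusted p = 0.00725). The fall of Pomp in control livers, 0.70 (adjusted p = 0.044), was lost in 17 of 28 alternatives.

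Of 9 other proteins that bind the regulatory particle, 1 fell in control livers, and 1 rose and 1 fell in null livers. Usp14, a deubiquitinase on the cap, read 9.89, 9.51 and 9.71 in control vehicle and 8.78, 9.03 and 8.96 in control tunicamycin livers. It fell by 0.78 in control (SE 0.18, adjusted p = 0.00746) and by 0.90 in null livers (SE 0.18, adjusted p = 0.00527), calls lost with deposited intensities. The control call was also lost with array medians centred, and after adjustment for the actin ratio (-0.74, adjusted p = 0.0822). Zfand5, a proteasome-binding activator, rose by 0.60 in null livers (SE 0.13, adjusted p = 0.01), against 0.08 ± 0.13 in control livers. With the gene's probe sets averaged the null change was 0.25 and not called (adjusted p = 0.19).

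Of 3 genes that control proteasome transcription, Nfe2l1 rose in control livers. It read 9.07, 9.25 and 9.08 with vehicle and 9.75, 10.02 and 10.27 with tunicamycin, so the groups were apart, and it rose by 0.88 (SE 0.20, adjusted p = 0.00712). Adjusted for the actin ratio, the change was 0.66 and not called (adjusted p = 0.136). In null livers it changed by 0.61 ± 0.20 (adjusted p = 0.0577), with null vehicle replicate 2 high at 9.82. Nfe2l2, a related factor of the oxidative stress response, was called lower in control livers at -0.40 (adjusted p = 0.0496) and lost that call in 23 of 28 alternatives, with a change of sign to 0.28 when the gene's probe sets were averaged. Ngly1, which removes glycans from Nfe2l1 protein, was not called, at -0.28 and -0.32.

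Of 7 measured shuttle factors and subunits of the Vcp complex, which brings ER substrates to the proteasome, 4 rose and 0 fell in control livers, and 0 were called in null livers. Vcp read 12.01, 11.80 and 11.94 in control vehicle and 12.91, 13.07 and 12.68 in control tunicamycin livers, and rose by 0.97 (SE 0.24, adjusted p = 0.0117). Its cofactor Ufd1 read 9.26, 9.25 and 9.15 with vehicle and 10.26, 10.32 and 10.19 with tunicamycin in control livers, a rise of 1.04 (SE 0.13, adjusted p = 0.000142). In null livers Ufd1 read 9.48, 9.15 and 9.15, then 9.71, 9.57 and 9.59, a change of 0.36 ± 0.13 (adjusted p = 0.0828). The other cofactor, Nploc4, rose by 0.79 (adjusted p = 0.0121) and the shuttle Ubqln2 by 0.87 (adjusted p = 0.00434) in control livers. Vcp was not called without control tunicamycin replicate 2 (0.88, adjusted p = 0.0517), nor Nploc4 without control vehicle replicate 3 (0.69, adjusted p = 0.0524). Adjusted for the actin ratio, Ufd1 was still called in control livers (1.02, adjusted p = 0.00429), and Vcp (0.70, adjusted p = 0.189), Nploc4 (0.40, adjusted p = 0.278) and Ubqln2 (0.84, adjusted p = 0.0546) were not.

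With tunicamycin, Ufd1 was lower in null than in control livers by -0.63 ± 0.13 (adjusted p = 0.0188) and Ubqln2 by -0.74 ± 0.18 (adjusted p = 0.046), the latter lost in 19 of 28 alternatives. Ufd1 was not called without any 1 of 4 tunicamycin arrays, at -0.63 to -0.60. The ratio of 5′ to 3′ Gapdh control probe sets was also apart between these groups, at 0.556 ± 0.0289 (SD, n = 3) in control and 0.401 ± 0.0327 in null tunicamycin livers (exact permutation test, two-sided, p = 0.1, the smallest possible). With the Gapdh ratio as a covariate Ufd1 was called (-0.68, adjusted p = 0.0156) and Ubqln2 was not (-0.74, adjusted p = 0.0788). The actin ratio of the same groups was 0.328 ± 0.0533 in control and 0.309 ± 0.116 in null tunicamycin livers (exact permutation test, two-sided, p = 0.8). The interaction did not pass for Ufd1 (-0.67 ± 0.19, adjusted p = 0.172), Ubqln2 (-0.67 ± 0.26, adjusted p = 0.444) or Vcp (-0.71 ± 0.34, adjusted p = 0.643).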

How the data were processed

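Total RNA from liver was extracted with Trizol and 6 µg was made into biotin-labelled cRNA for Affymetrix arrays, per the labels. The authors deposited 1 linear intensity per probe set and array. No label says how probes were summarised or scaled, and the array quantiles differ, so the intensities were taken as not normalized between arrays.

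Of 45101 probe sets, 34945 have 1 symbol in the platform's annotation, 932 several and 9160 none, and 64 are controls. Deposited intensities were turned into log2(value + 16) and quantile normalized, the dimmest 30% of probe sets (by mean) were removed, and 1 probe set per gene was kept (highest mean over 12 arrays), which left 14568 genes. Group means were fitted with lmFit and eBayes of limma 3.58.1 (R 4.3.3, data.table package 1.17.8; 8 residual degrees of freedom) over 12 arrays, with Benjamini-Hochberg adjustment. The samples are replicates by their labels, and limma p-values set a difference of group means against the pooled spread between samples within groups. The steps were tested on simulated data. Promoter windows come from RefSeq, GRCm38.p6. Python 3.11.15 and matplotlib 3.10.9 drew the figures.

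The members and lists were chosen with earlier results of these data known. Full values are given for the catalytic and inducible subunits, up to 6 called members per comparison whose groups do not overlap (or the 3 with the smallest p), members whose probe sets disagree, and up to 4 called genes per list, or the 1 with the smallest p. Other members and list genes are named for single values. Psme2, Paaf1, Adrm1, Ddi2 and several ubiquitin genes were not analysed here. Alternatives changed the pseudocount, the filter, the scaling, the probe set choice, the test and the arrays used, and their effect is given at the end.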

Additional observations from a re-analysis of the deposited data

Results flagged for a closer look

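For 3 genes the genotype difference had opposite directions without and with tunicamycin, with null and control arrays apart both times. They were 3 of 86 members and partner genes tested (3.49%), beside 73 of all 14568 genes (0.501%), and were picked for this pattern. Psmb10 was lower in null livers by -0.15 ± 0.12 with vehicle and higher by 0.28 ± 0.12 with tunicamycin. The interaction was 0.43 (limma, adjusted p = 0.504), so the difference did not pass its test.

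The activator subunit gene Psme1 did the same, with -0.21 ± 0.12 without and 0.20 ± 0.12 with tunicamycin and an interaction of 0.41 (adjusted p = 0.493). Zfand5 read 11.25, 11.30 and 11.09 in control vehicle and 11.03, 10.96 and 10.97 in null vehicle livers, then 11.45, 11.12 and 11.33 in control and 11.74, 11.48 and 11.54 in null livers with tunicamycin. Its genotype difference was -0.23 ± 0.13 and then 0.29 ± 0.13, and the interaction was 0.51 (adjusted p = 0.404). With its probe sets averaged, the Zfand5 change in null livers was 0.25 and not called (adjusted p = 0.19). Groups of 3 arrays were not tested for single outlying samples.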

How the results depend on the processing

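Counts of members that fell in control livers (7 above) came to 2 with array medians centred, 2 with unscaled deposited values, 3 once the actin ratio was a covariate, 3 with a 1.5-fold threshold and 2 at an adjusted p under 0.01. Leaving out 1 array at a time gave 3 to 7, with 3 without control tunicamycin replicate 3 and 4 without control vehicle replicate 1. The 5 falls in null livers became 8 with a pseudocount of 64, 0 with centred medians, 0 with deposited values, 9 with trend and robust eBayes, 8 with array quality weights, 1 in a fit of the groups compared alone, 3 with the actin ratio, 1 with a 1.5-fold threshold, 1 at an adjusted p under 0.01 and 2 with cyclic loess, which was chosen after seeing the data. Leaving out 1 array gave 1 to 7, with 1 without null tunicamycin replicate 3, 2 without null tunicamycin replicate 1 or null vehicle replicate 2 or 3, and 6 without the array that carried kidney transcripts. Between genotypes with tunicamycin, array quality weights gave 1 member, Psmd14. The share of all genes that fell moved with the setting too. In control livers it went from 13.3% to 8.11% with centred medians and 7.33% with deposited values. In null livers it went from 9.23% to 4.83% and 3.51%, and to 7.61% with cyclic loess. The other counts in this section stand without that share and do not show whether members moved apart from all genes.

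The labels do not say whether replicate numbers link groups. Correlations of same-numbered arrays between groups ran from -0.41 to 0.49. With 3 arrays in each group, they cannot show whether the numbers pair the samples. With the replicate number as a block 6 members fell in control and 3 in null livers, and 0 were called in the other comparisons.

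Signs turned for Nfe2l2 in control livers with probe sets averaged (0.28), Psmb6 in control livers with centred medians (0.020) and deposited values (0.041), and Psmb5 in null livers without null vehicle replicate 1 (-0.048, with at most 0.17 when another array is left out). None of these turned values was called. The fit of the groups compared alone gives no interaction. The cause of each change was not tested.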
